A study of Arabidopsis thaliana with 12 samples.

Results

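The comparison described here set night against day in Arabidopsis thaliana seedlings, across lights off. It covered 6 of the 12 arrays of the series: 3 harvested at midnight (ZT18, in the dark) and 3 harvested at 6 pm (ZT12, in the light), chosen by the clock time in the sample titles. Zeitgeber time (ZT) is the number of hours since the lights came on at 6 am, and they went off at ZT16, so ZT18 lay 2 h into the night. Every seedling was of the Columbia ecotype and carried CCA1-ox, a transgene that overexpresses the clock gene CCA1. The promoter that drives the transgene and the number of independent lines are not given in the labels. The aerial part of 10-day-old seedlings was taken, after growth on agar with Murashige and Skoog salts and 1% sucrose in days of 16 h light and 8 h dark. The other 6 arrays, 3 at ZT6 in the light and 3 at ZT0 at the moment of lights on, came from the same line and growth conditions. Wild-type seedlings were not analysed here, so each change is one within CCA1-ox plants, and the transgene could not be checked, as no probe set was named for CCA1.

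CCA1 is a MYB transcription factor that, in wild-type plants, peaks around dawn and represses genes of the evening, and constant overexpression of it is known to weaken rhythms that run without a light signal. In a light and dark cycle, light itself also drives transcripts, through photoreceptors and through the sugar that photosynthesis supplies. Passage into darkness ends photosynthesis, shifts leaves to the use of stored carbon, stabilises factors that promote elongation growth and removes the light-stabilised factors of seedling greening.

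Each probe set had a log2 expression value on every array, and 14016 probe sets were bright enough to test. Array medians lay between 6.26 and 6.43, and all 12 arrays shared a floor of 2.06, where 26.8% to 28.2% of values lay. Over the tested probe sets, the SD of the difference between an array of ZT18 and an array of ZT12 was 0.857 to 0.980, against 0.366 to 0.499 between arrays within ZT18 and 0.255 to 0.402 within ZT12. The time of harvest in 1 other label of each sample disagreed with the title on 9 of the 12 arrays, including 5 of the 6 used here, whereas title, source name and description gave 1 time on all 12. The labels do not tell whether replicates were grown apart, so the p-values rest on a spread between arrays that may be technical. One measure of RNA quality moved with the groups. The log2 signal of chip controls at the 3' end minus that at the 5' end, averaged over 6 control pairs, was 4.12, 4.67 and 4.39 on the ZT18 arrays, against 3.48, 3.89 and 3.73 on the ZT12 arrays. The difference was 0.69 (exact permutation test, two-sided, p = 0.1, the smallest that 3 against 3 arrays allow), and the lowest ZT18 array exceeded the highest of the other 9 arrays, at 3.97. Its part in the changes was not tested directly. For most genes and lists, calls that did not hold with this difference as a covariate in the fit are named or counted. The same difference from the 3 control pairs of the r2 sets alone, called the r2 covariate, was added after seeing the data. Precision is limited by having 3 arrays per time.

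Night and day differed in about 1 of every 2 transcripts measured. By limma's moderated test, with Benjamini-Hochberg adjustment and a threshold of 0.05, 7078 of 14016 probe sets (50.5%) differed between ZT18 and ZT12. Of these, 3659 (26.1%) were higher at ZT18 and 3419 (24.4%) were lower. A change of at least 2-fold was called upward for 1035 probe sets (7.38%) and downward for 1190 (8.49%), and one of at least 8-fold for 64 upward and 90 downward. All 3 arrays of 1 time lay above all 3 of the other for 7965 probe sets (56.8%). With the covariate, 2575 probe sets passed (18.4%), and 2371 of the 7078 were among them. At the level of genes, each represented by its brightest probe set, 3739 of 7572 differed (49.4%), with 1997 higher (26.4%) and 1742 lower (23.0%) and a median log2 difference of 0.03. These shares are the background for each gene list below. In aerial tissue sampled in bulk, fewer cells of a type and less RNA per cell cannot be told apart.

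Genes of the iron-deficiency response included AT1G47400 and BHLH101, which were among the 15 largest falls by log2 difference. In this pathway, small peptides and bHLH factors of subgroup Ib are transcribed when a plant senses too little iron, under the control of bHLH factors of subgroup IVc, and raise iron uptake and transport. Of 9 measured genes of the list, 6 were lower at ZT18, 1 was higher and 2 did not pass, and the median log2 difference was -1.75. AT1G47400, a gene for a short peptide of the iron response, read 5.09, 5.36 and 4.16 on the ZT18 arrays, against 11.66, 10.87 and 11.33 on the ZT12 arrays. The groups were far apart, and the gene fell 85.5-fold (log2 difference -6.42, SE 0.35, adjusted p = 5.09e-08).

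BHLH101, a subgroup Ib factor, read 3.82, 3.84 and 3.04 at ZT18, all under the detection limit of 4 used here, against 8.96, 8.93 and 9.27 at ZT12. It was thus at least 33.3-fold lower at ZT18 (log2 difference -5.49, SE 0.26, adjusted p = 2.47e-08). PYE, the gene for POPEYE, a bHLH repressor of the response, read 5.59, 5.33 and 5.12 at ZT18, against 8.01, 7.50 and 7.80 at ZT12, a 5.36-fold fall (adjusted p = 1.17e-06). AT3G07720 of the same list fell 3.36-fold, to 8.05 ± 0.29 at ZT18, against 9.80 ± 0.15 at ZT12 (SD, n = 3 each).

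The upstream factors did not move as a block. Among the subgroup IVc genes, bHLH34 fell 3.79-fold, with 5.24, 6.10 and 5.80 at ZT18 against 7.59, 7.76 and 7.56 at ZT12 (adjusted p = 1.46e-05). Its relative bHLH115 was lower by only 0.28 on the log2 scale (adjusted p = 0.0270), a call lost with the covariate (adjusted p = 0.964). The other IVc genes, bHLH104 and ILR3, had log2 differences of 0.22 and 0.07 and did not pass (adjusted p = 0.112 and 0.594). bHLH121, whose product acts together with the IVc factors, went the other way. It read 11.36, 11.29 and 11.16 at ZT18 against 9.53, 9.66 and 9.49 at ZT12, a 3.27-fold rise (adjusted p = 3.46e-07).

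Both AT1G47400 and BHLH101 were at their highest at ZT12 among the 4 times. BHLH101 rose between ZT6 and ZT12 by 1.35 on the log2 scale (adjusted p = 0.0211, not called in 6 of the 12 fits that each left out 1 array) before it fell across lights off, and AT1G47400 had a log2 difference of 1.24 over the same hours that did not pass (adjusted p = 0.0850). At ZT0, after the rest of the night, AT1G47400 stood at 7.83 ± 0.57 and BHLH101 at 4.95 ± 0.48, between their levels at ZT18 and ZT12.

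**Figure D1:**
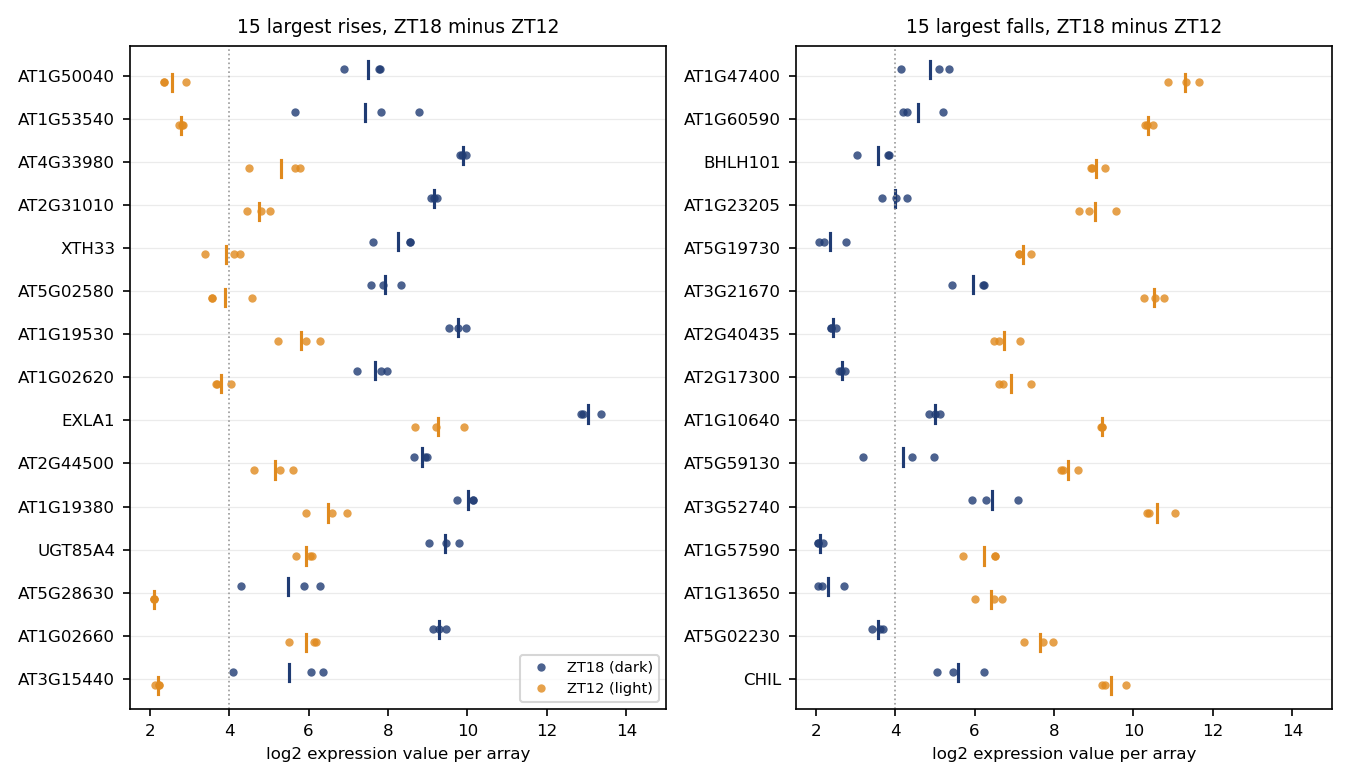
Log2 expression per array for the 15 genes with the largest called rises and the 15 with the largest called falls at ZT18 against ZT12, by log2 difference (values under the detection limit have no order). Each point is 1 array, blue for ZT18 above orange for ZT12, short bars are means and the dotted line is the detection limit of 4; in no gene do the points of the groups overlap, which the choice of these genes required.

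Of the other 13 genes among the 15 largest falls, 5 had a role in the annotation used: 3 pectin lyase-like genes, a nitrate transporter gene and a gene of flavonoid synthesis. Pectin lyase-like proteins belong to a family that includes enzymes acting on wall pectin. The separate list of pectin enzymes had 2 measured genes, 1 higher at ZT18 and none lower. That call did not hold with the covariate, and pectin genes without a symbol may be missing from the list. AT1G60590 read 5.21, 4.20 and 4.31 at ZT18 against 10.29, 10.34 and 10.50 at ZT12, a 55.9-fold fall. AT1G10640 fell 18.4-fold, with 4.86, 5.13 and 5.01 at ZT18 against 9.20, 9.18 and 9.22 at ZT12. AT5G19730 read 2.09, 2.21 and 2.77 at ZT18, near the array floor, against 7.12, 7.11 and 7.41 at ZT12, and was at least 9.28-fold lower. The spread within each time was small beside these gaps, and adjusted p-values for the 3 genes were at most 1.32e-08.

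AT3G21670, a nitrate transporter gene, fell 23.8-fold, with 6.20, 6.23 and 5.42 at ZT18 against 10.55, 10.77 and 10.26 at ZT12 (adjusted p = 1.03e-07). CHIL, a chalcone isomerase-like gene that aids flavonoid synthesis, fell 14.5-fold, with 5.45, 5.06 and 6.22 at ZT18 against 9.80, 9.29 and 9.21 at ZT12 (adjusted p = 6.93e-07). HCT, of lignin precursor synthesis, was the other measured gene of the phenylpropanoid list and was lower by 0.60 on the log2 scale. That call did not hold with the covariate (adjusted p = 0.0999). The remaining 8 were loci without a symbol. AT1G23205 read 4.03, 4.29 and 3.67 at ZT18 against 9.57, 8.87 and 8.63 at ZT12, a 32.6-fold fall. AT5G59130 and AT3G52740 each fell 17.8-fold. For AT1G23205 and AT5G59130, 2 of the 3 ZT18 arrays reached the detection limit, so their folds rest partly on a value under it. AT5G02230, AT2G17300, AT2G40435, AT1G13650 and AT1G57590 were each under the detection limit on all 3 ZT18 arrays and were at least 12.5-fold, 7.54-fold, 6.73-fold, 5.29-fold and 4.73-fold lower. All 15 largest falls passed with the covariate and after leaving out any array, and 2 of them, AT1G13650 and BHLH101, had also changed between ZT6 and ZT12, the first downward and the second upward.

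Clock-linked cold-regulated genes were higher at ZT18. COR27 encodes a small protein that represses clock genes of the evening, AT4G33980 is its relative, and both rose. AT4G33980 read 9.86, 9.98 and 9.82 at ZT18, against 5.78, 4.50 and 5.66 at ZT12, a 23.8-fold rise (log2 difference 4.57, SE 0.43, adjusted p = 3.77e-06). COR27 read 12.39, 12.15 and 12.10 at ZT18 against 9.28, 9.06 and 9.27 at ZT12, an 8.05-fold rise (adjusted p = 2.92e-06). The timing of the pair differed. COR27 had already risen by 2.88 between ZT6 and ZT12 (adjusted p = 0.000335), and its step across lights off was not told apart from that earlier step (adjusted p = 0.863). AT4G33980 had a log2 difference of 0.33 over those hours (adjusted p = 0.714), and its step across lights off was the larger (adjusted p = 0.00137).

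Only 2 core clock genes could be measured, and both were called lower by small amounts. Other genes of the core clock list had no named probe set, so their changes are not known here. GI, the gene for GIGANTEA, which joins the clock to flowering, read 8.22, 7.54 and 7.69 at ZT18 against 8.29, 8.43 and 8.22 at ZT12. The highest ZT18 array lay next to the lowest ZT12 array, and the log2 difference of -0.50 passed (adjusted p = 0.0340) but not with the covariate (adjusted p = 0.717) and not in 5 of the 12 fits that each left out 1 array. The MYB-like gene AT5G52660, a relative of CCA1, was lower by 0.63, with 7.28, 7.32 and 7.50 at ZT18 against 7.75, 8.17 and 8.07 at ZT12 (adjusted p = 0.00224). Of the photoperiod list, AT1G69570, a CYCLING DOF FACTOR gene whose family represses flowering, rose 3.63-fold, with 9.04, 8.25 and 8.43 at ZT18 against 6.70, 6.62 and 6.81 at ZT12 (adjusted p = 6.86e-06). AT1G29160 rose 1.98-fold, which did not hold with the covariate (adjusted p = 0.306), and AT2G34140 did not pass (adjusted p = 0.0803).

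The 4 measured genes of the light-signalling list moved in both directions, 2 upward and 2 downward. HYH encodes a bZIP factor close to HY5 that promotes greening in light. It read 7.65, 8.55 and 6.78 at ZT18, against 10.90, 10.92 and 10.74 at ZT12, a 9.14-fold fall (adjusted p = 5.65e-06). The ZT18 arrays were spread, yet none reached the ZT12 range. Of the 4 times, ZT18 alone was low for HYH: it stood at 10.86 ± 0.30 at ZT0 and 10.79 ± 0.16 at ZT6. AT3G44450, which encodes an inhibitor of cryptochrome photoreceptors, fell 13.2-fold to 5.01, 4.84 and 3.77 at ZT18, against 8.43, 8.38 and 7.99 at ZT12, and was lower still at ZT0, at 3.28 ± 0.34.

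FHL, which helps carry phytochrome A into the nucleus, rose 3.80-fold, with 7.12, 7.08 and 8.07 at ZT18 against 4.95, 5.81 and 5.72 at ZT12 (adjusted p = 0.000317, and 0.0734 with the covariate). AT1G72390 was higher by 0.52 on the log2 scale, a call also lost with the covariate (adjusted p = 0.513).

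**Figure D2:**
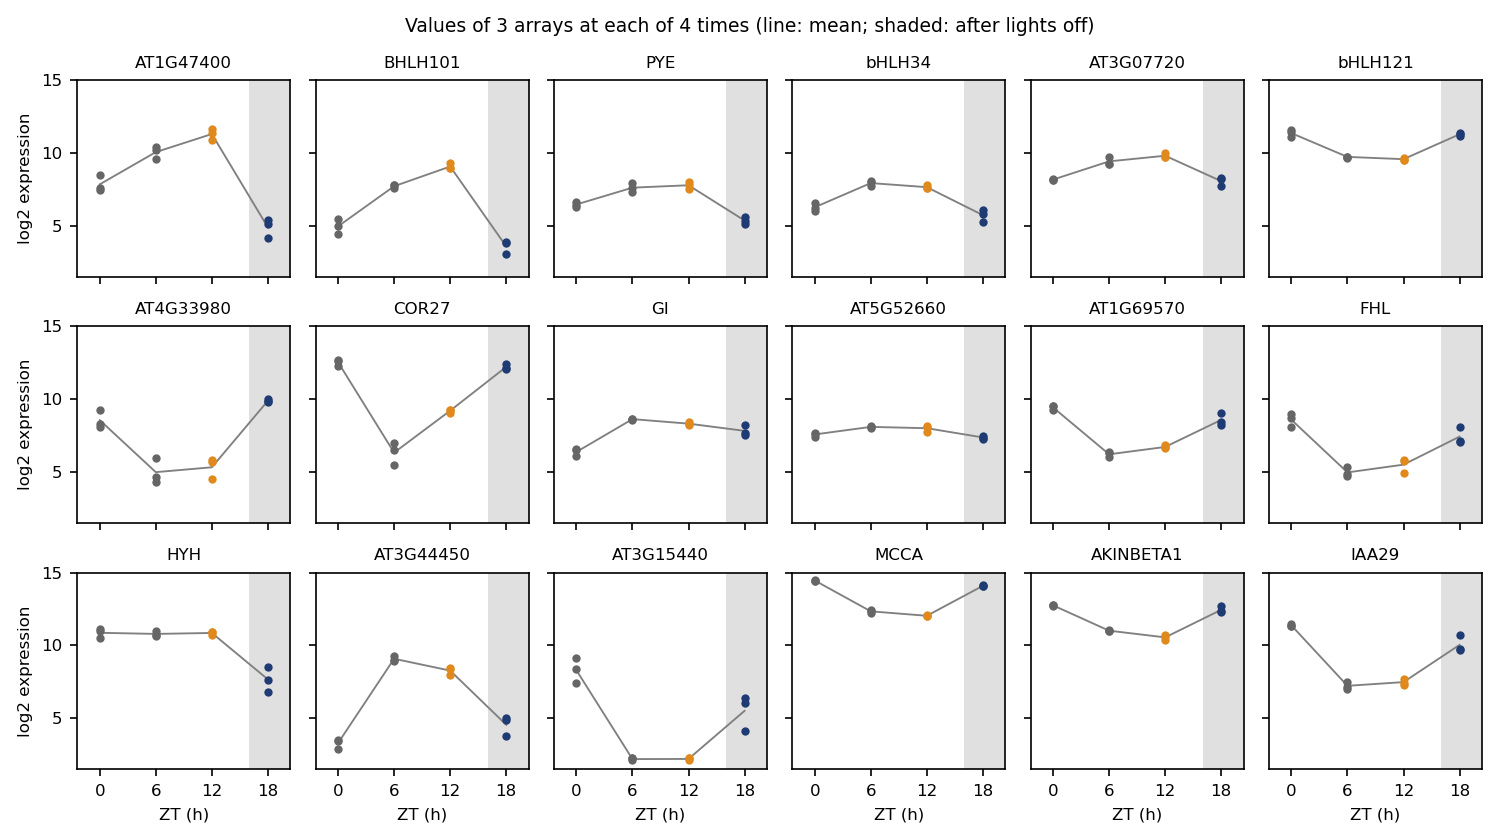
Log2 expression (vertical axis) at ZT0, ZT6, ZT12 and ZT18 (horizontal axis, h) for 18 genes of iron deficiency (AT1G47400 to bHLH121), clock, flowering and light signalling (AT4G33980 to AT3G44450), starvation (AT3G15440 to AKINBETA1) and auxin (IAA29). Points are arrays, lines join the means of 3 arrays and shading marks the time after lights off; HYH is low at ZT18 alone, while COR27 is already higher at ZT12 than at ZT6.

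Genes of carbon starvation and of amino acid breakdown rose. When sugar runs short, leaf cells turn to branched-chain amino acids as fuel, and the kinase SnRK1 is a known switch for that programme. Of 7 measured genes of the dark and sugar starvation list, 6 were higher at ZT18, none was lower and ATL8 did not pass, with a median log2 difference of 1.04. MCCA encodes a subunit of methylcrotonyl-CoA carboxylase, which breaks down leucine. It read 14.12, 14.11 and 14.05 at ZT18 against 12.01, 11.99 and 12.11 at ZT12, a 4.17-fold rise (SE 0.07 on the log2 scale, adjusted p = 1.68e-09). MCCB, for the partner subunit, rose 2.06-fold, with 12.56, 12.61 and 12.70 at ZT18 against 11.45, 11.61 and 11.67 at ZT12. IVD, for isovaleryl-CoA dehydrogenase, the preceding enzyme of the same pathway, rose 4.11-fold, with 12.03, 12.01 and 11.78 at ZT18 against 9.85, 10.03 and 9.82 at ZT12 (adjusted p = 9.09e-08). These 3 genes of leucine breakdown each passed with the covariate.

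AKINBETA1, for a beta subunit of SnRK1, rose 3.72-fold, with 12.68, 12.34 and 12.31 at ZT18 against 10.36, 10.54 and 10.75 at ZT12. AT3G15440 read 6.05, 6.37 and 4.09 at ZT18 against 2.23, 2.12 and 2.23 at ZT12, at least a 2.84-fold rise, with 1 ZT18 array only just above the detection limit and a call that was lost with the covariate (adjusted p = 0.0657). Its neighbour AT3G15450, the dark-starvation gene, rose 2.05-fold, with 12.13, 11.92 and 11.80 at ZT18 against 10.80, 10.76 and 11.18 at ZT12. AT5G18640 was higher by 0.37 (adjusted p = 0.0481, and 0.186 with the covariate). ATL8, a RING-type ubiquitin ligase gene, read 6.37, 6.13 and 4.95 at ZT18 against 4.92, 4.85 and 4.91 at ZT12 (adjusted p = 0.129). For both ATL8 and AT3G15440, the low ZT18 array was the replicate numbered 3.

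All 4 measured genes of the amino acid catabolism list, which shares MCCB with the starvation list, were higher at ZT18. The asparaginase genes ASPGB1 and ASPGA1 had the smaller changes, 1.53-fold and 1.18-fold, and neither passed with the covariate (adjusted p = 0.275 and 0.853). Autophagy, another source of fuel in starved leaves, showed no common shift: of 11 measured genes, ATG8E rose 1.62-fold (adjusted p = 0.000624), ATG8H fell 1.91-fold (adjusted p = 0.000843, and 0.395 with the covariate) and 9 did not pass.

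Other loci among the 15 largest rises had no symbol or role in the annotation used. AT1G50040 read 7.78, 7.79 and 6.89 at ZT18 against 2.37, 2.37 and 2.91 at ZT12, at least an 11.2-fold rise. AT2G31010 rose 21.1-fold (adjusted p = 3.53e-08), with 9.08, 9.22 and 9.17 at ZT18 against 4.45, 5.03 and 4.80 at ZT12, and a dimmer probe set for it gave a log2 difference of 2.80 in place of 4.40. AT5G02580 rose 16.3-fold, AT1G19530 15.4-fold, AT1G02620 14.6-fold, AT2G44500 12.9-fold, AT1G19380 11.4-fold and AT1G02660 10.2-fold. Only 1 of the 3 ZT12 arrays reached the detection limit for AT5G02580 and for AT1G02620. AT5G28630 read 4.30, 5.89 and 6.28 at ZT18 against 2.12, 2.12 and 2.10 at ZT12, and its rise was not called with the covariate (adjusted p = 0.0680). Each of the 15 passed after leaving out any array, and 13 passed with the covariate, all but AT5G28630 and AT3G15440. None of the 15 was called between ZT6 and ZT12.

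Cell-wall loosening genes split by family member. Expansins loosen walls without cutting them, and xyloglucan endotransglucosylase/hydrolases (XTH) cut and rejoin the xyloglucan chains that tie cellulose together. Of 12 measured expansin genes, 4 were higher and 5 were lower at ZT18, with a median log2 difference of -0.04. The expansin-like A genes all rose: EXLA1 13.7-fold, EXLA2 4.99-fold and EXLA3 at least 1.25-fold. EXLA1 read 13.35, 12.86 and 12.92 at ZT18 against 8.67, 9.21 and 9.91 at ZT12 (adjusted p = 2.76e-07). EXLA3 was dim, and its call did not hold with the covariate (adjusted p = 0.152). EXPA16 read 6.94, 6.65 and 6.92 at ZT18 against 3.97, 3.94 and 3.98 at ZT12, at least a 7.16-fold rise.

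Of the other alpha and beta expansins, 5 fell. EXPA8 read 7.08, 7.06 and 7.04 at ZT18 against 10.77, 10.07 and 9.80 at ZT12, an 8.89-fold fall (adjusted p = 2.08e-07). EXPB3 read 7.75, 7.78 and 7.77 at ZT18 against 10.76, 10.32 and 10.31 at ZT12, a 6.48-fold fall. EXPA15 fell 5.85-fold, EXPA4 3.04-fold and EXPB1 at least 3.50-fold. EXPA20, EXPA21 and EXLB1 did not pass. With the covariate, 8 of the 9 calls held.

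The xyloglucan list of 7 measured genes had 4 higher and 1 lower. XTH33 read 8.55, 8.55 and 7.62 at ZT18 against 4.13, 4.27 and 3.39 at ZT12, a 19.9-fold rise (adjusted p = 2.49e-06), with 2 of the 3 ZT12 arrays above the detection limit. XTH18 rose 5.92-fold and XTH16 1.84-fold. EXGT-A3 rose 1.36-fold, which did not hold with the covariate (adjusted p = 0.324). XTH32 ran against them, with 6.68, 6.62 and 6.94 at ZT18 against 10.12, 9.54 and 9.64 at ZT12, an 8.11-fold fall (adjusted p = 7.40e-08). XTH19, with a log2 difference of 0.44, and XEG113, with -0.23, did not pass.

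Endoglucanases of family GH9, which cut glucan chains of the wall, held no called rise. GH9B8 read 2.30, 2.71 and 2.94 at ZT18 against 5.95, 6.03 and 4.92 at ZT12, and GH9C2 read 2.32, 3.11 and 3.27 at ZT18 against 5.91, 5.98 and 5.56 at ZT12. They were at least 3.1-fold and 3.52-fold lower, while GH9B7 and GH9B13 did not pass. The trichome birefringence-like (TBL) genes, whose products add acetyl groups to wall polymers, had 8 of 13 measured members higher and 1 lower, with a median log2 difference of 0.48. TBL37 rose 2.43-fold (11.02 ± 0.22 at ZT18 and 9.74 ± 0.12 at ZT12) and TBL38 1.99-fold (9.43 ± 0.32 at ZT18 and 8.43 ± 0.18 at ZT12). TBL28 was the lower one, by 0.63. Of these 9 calls, 4 held with the covariate.

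**Figure D3:**
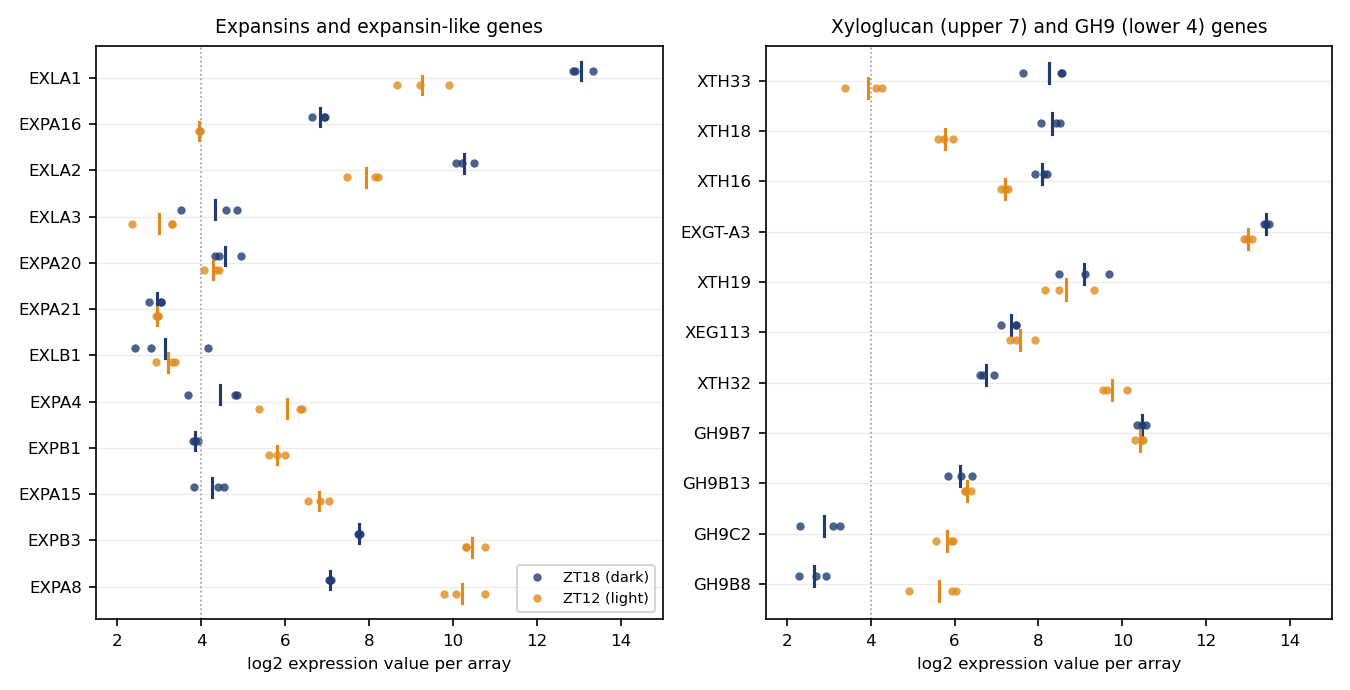
Log2 expression per array (horizontal axis) for 12 expansin genes on the left and 7 xyloglucan and 4 GH9 endoglucanase genes on the right, sorted by the difference of ZT18 minus ZT12. Blue points are ZT18 arrays above orange ZT12 arrays, short bars are means and the dotted line is the detection limit of 4; EXLA1 and XTH33 lie to the right at ZT18, while EXPA8, EXPB3 and XTH32 lie to the left of their ZT12 values.

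Auxin and gibberellin genes were among the rises. Of 6 measured auxin genes, 3 were higher at ZT18 and none was lower. IAA29, an early auxin response gene that is also known to follow phytochrome-interacting factors in the dark, read 9.74, 9.68 and 10.68 at ZT18 against 7.44, 7.27 and 7.71 at ZT12, a 5.89-fold rise (adjusted p = 2.37e-06). GH3.3, for an enzyme that joins auxin to amino acids, rose 3.92-fold, with 7.20, 6.47 and 6.89 at ZT18 against 4.70, 5.28 and 4.68 at ZT12. IAA18 rose 1.48-fold, and GH3.17, WES1 and YUC2 did not pass. Gibberellin genes had 3 of 5 measured members higher: SPY, for a repressor of the pathway, rose 2.89-fold, and the receptor genes GID1B and GID1A rose 2.03-fold and 1.31-fold. SLY1, for the F-box protein that removes DELLA repressors, was lower by 0.60, and of the 4 calls the one for SPY held with the covariate. Both measured ethylene genes were higher, RTE1 by 0.71 and EIN3 by 0.50 on the log2 scale, and passed with the covariate. Of 5 measured WRKY genes, 2 were higher and 3 did not pass, and 1 of the 2 calls held with the covariate. Among them WRKY22, for a defence-related transcription factor, rose 5.43-fold, with 8.85, 8.57 and 8.31 at ZT18 against 5.70, 6.18 and 6.53 at ZT12 (adjusted p = 6.46e-06).

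Among heat-shock and chaperone genes, 8 of 18 measured were higher at ZT18 and 3 were lower, with a median log2 difference of 0.21. AT1G53540, a small heat-shock protein gene, read 7.83, 8.78 and 5.66 at ZT18 against 2.84, 2.74 and 2.80 at ZT12, at least a 10.7-fold rise (adjusted p = 5.45e-05). The ZT18 arrays spread over more than 3 log2 units while the ZT12 arrays were level. Hop3, for a co-chaperone that links Hsp70 to Hsp90, rose 8.31-fold, with 7.80, 8.87 and 6.24 at ZT18 against 3.88, 4.95 and 4.93 at ZT12 (adjusted p = 0.000295, and 0.196 with the covariate). AT5G48570, another co-chaperone gene, rose 3.64-fold, with 9.39, 10.02 and 8.67 at ZT18 against 7.11, 7.84 and 7.54 at ZT12 (adjusted p = 0.00136, and 0.256 with the covariate).

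In each of these 3 genes, replicate 2 was the highest ZT18 array and replicate 3 the lowest. The same was so for AT5G51440, another small heat-shock gene, which read 8.24, 8.43 and 5.71 at ZT18 against 6.65, 6.68 and 6.71 at ZT12 and did not pass (adjusted p = 0.258). HSA32, Fes1C, ATERDJ2A, Fes1B and Hop1 rose between 1.34-fold and 2.05-fold, and none of these calls held with the covariate. Hsp70-2 fell 3.83-fold, with 6.99, 6.96 and 6.91 at ZT18 against 9.08, 8.76 and 8.83 at ZT12 (adjusted p = 1.66e-05). The chloroplast chaperonin genes Cpn60beta4 and Cpn60beta3 were lower by 0.52 and 0.47 on the log2 scale. With the covariate, 2 of the 11 calls in this list held, those of AT1G53540 and Hsp70-2, and 8 held with the r2 covariate.

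Secondary metabolism and detoxification genes were mostly lower. Glucosinolates are sulphur-rich defence compounds of the cabbage family. Of 5 measured genes in the list of sulphur assimilation and glucosinolates, 4 were lower at ZT18, with a median log2 difference of -1.70. BCAT4, for the first enzyme of methionine chain elongation, read 9.81, 9.42 and 9.30 at ZT18 against 11.76, 11.76 and 11.65 at ZT12, a 4.63-fold fall (adjusted p = 2.44e-05). GTR1, for a glucosinolate transporter, fell 3.37-fold, with 8.32, 8.33 and 7.90 at ZT18 against 10.03, 9.89 and 9.88 at ZT12. AOP1 fell 3.25-fold and UGT74B1, for the glucosyltransferase that acts late in glucosinolate core synthesis, 2.69-fold, and neither passed with the covariate (adjusted p = 0.164 and 0.152), though all 4 calls held with the r2 covariate. GTR2, for the paired transporter, had a log2 difference of 0.45 and did not pass (adjusted p = 0.0907).

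Glutathione S-transferase genes were lower in 6 of 7 cases. GSTU20 read 10.33, 10.14 and 10.51 at ZT18 against 12.92, 12.71 and 12.98 at ZT12, a 5.83-fold fall (adjusted p = 1.37e-07), and GSTU27 fell 2.15-fold. Cytochrome P450 genes were lower in 6 of 11 cases and higher in none. CYP71B26 read 9.43, 8.98 and 9.07 at ZT18 against 11.64, 11.83 and 11.40 at ZT12, a 5.51-fold fall, and CYP78A9, of a subfamily that promotes organ growth, fell 3.06-fold. With the covariate, 3 of the 6 calls held in each of these families.

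UGT enzymes attach sugars to small molecules, and 14 of 27 measured genes were lower and 5 were higher. UGT73B4 was at least 4.39-fold lower, UGT76E11 fell by 2.93 on the log2 scale and GT72B1 by 2.49. UGT85A4 was the largest exception, with 9.79, 9.46 and 9.04 at ZT18 against 5.69, 6.09 and 6.03 at ZT12, an 11.2-fold rise (adjusted p = 7.69e-08). UGT71C5, for an enzyme that inactivates abscisic acid, was higher by 1.44. The flavonol glycosyltransferase genes UGT78D1 and UGT78D2 were lower by 0.79 and 0.76, and the second call was lost with the covariate (adjusted p = 0.191). Of the 19 calls in this family, 12 held with the covariate.

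Sugar transporters of the SWEET family were lower in 5 of 6 listed cases, with a median log2 difference of -0.62. SWEET17, for a fructose carrier of the vacuole, read 8.12, 8.41 and 8.27 at ZT18 against 9.49, 9.16 and 9.21 at ZT12, a 2.03-fold fall (adjusted p = 3.29e-05). SWEET16 fell 1.70-fold, SWEET11, of phloem loading, 1.40-fold and SWEET1 1.36-fold. SWEET2, read at 2.70, 3.53 and 2.92 at ZT18 against 4.32, 4.47 and 4.01 at ZT12, was dim, and only SWEET17 held with the covariate. SWEETIE, the gene not called, is not a SWEET carrier.

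**Figure D4:**
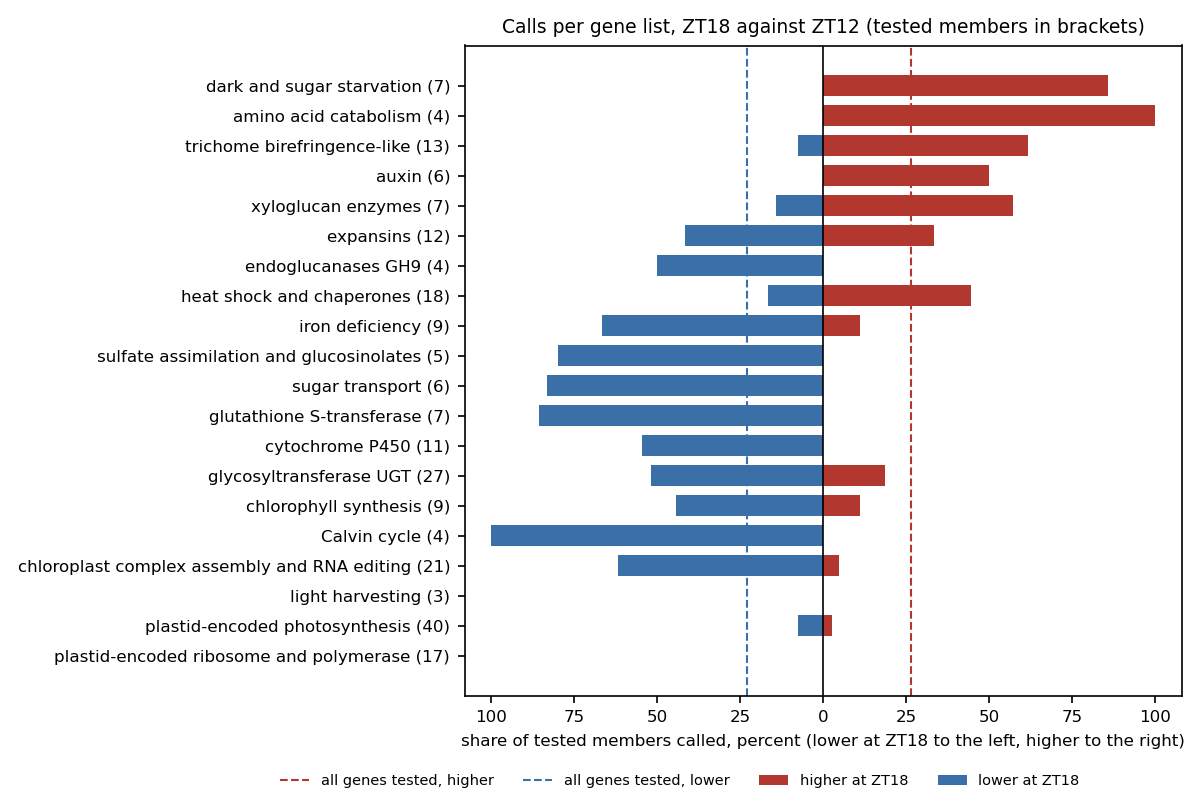
Share of tested members (horizontal axis, percent) called higher at ZT18 (red, to the right) or lower (blue, to the left) for 20 gene lists, with the number tested in brackets. The 20 were picked by hand from 70 lists with a tested member. Mixed lists such as bZIP factors and serine carboxypeptidases are not drawn. Dashed lines mark the shares over all 7572 genes, 26.4% higher and 23.0% lower; lists without a bar had no member called.

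Photosynthesis genes changed little in size. The 3 measured light-harvesting genes, LHCB4.1, LHCB4.2 and LHCB4.3, did not pass, and LHCB4.1 stood at 14.80 ± 0.12 at ZT18 and 14.80 ± 0.07 at ZT12. Of 4 nuclear photosystem genes, PSBY was lower by 0.44 on the log2 scale (adjusted p = 0.00204, and 0.407 with the covariate) and the others did not pass. All 4 listed Calvin cycle genes were lower, with a median log2 difference of -0.37. GAPC2 had the largest fall, 2.29-fold, with 11.93, 11.99 and 11.88 at ZT18 against 13.40, 12.94 and 13.06 at ZT12, but its product is the cytosolic enzyme of glycolysis and not a Calvin cycle enzyme. RCA, for rubisco activase, SBPASE and PRK were lower by 0.38, 0.36 and 0.33, and none of these 3 held with the covariate (adjusted p from 0.314 to 0.995).

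Chlorophyll synthesis genes had 4 of 9 measured members lower and 1 higher. HEME2, for uroporphyrinogen decarboxylase, read 9.60, 9.79 and 9.89 at ZT18 against 11.86, 11.31 and 11.13 at ZT12, a 3.19-fold fall (adjusted p = 2.35e-05), and HEME1, for the same enzyme, fell 1.61-fold. CHLI2, for a magnesium chelatase subunit, fell 1.57-fold, and GSA1 was lower by 0.30, which did not hold with the covariate. HEMA2, for a glutamyl-tRNA reductase that starts the pathway, was the riser, at 1.94-fold. APL3, for a large subunit of the starch enzyme ADP-glucose pyrophosphorylase, fell 2.50-fold, with 4.78, 4.77 and 4.72 at ZT18 against 5.99, 6.18 and 6.07 at ZT12, a call lost with the covariate (adjusted p = 0.173).

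Nuclear genes for assembly, RNA editing and subunits of chloroplast complexes were lower in 13 of 21 cases and higher in 1, with a median log2 difference of -0.43. CRR41 and CRR42, assembly factors of the NADH dehydrogenase-like complex, fell by 1.35 and 1.26 on the log2 scale, and its subunit genes NdhL, NdhN and NdhS by 0.63, 0.49 and 0.25. With the covariate, 1 of the 14 calls held, that of AT4G38100 (adjusted p = 0.00942), and 4 held with the r2 covariate. Transcripts encoded in the plastid itself were mostly not called. Of 40 photosynthesis genes 1 was higher and 3 were lower, and of 17 plastid ribosome and polymerase genes none was called in limma (0 at an unadjusted p under 0.05); labelling was primed with oligo(dT), which favours transcripts with poly(A) tails.

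Cold-response genes did not move together. COR15A and COR15B, which protect chloroplast membranes in the cold, fell 2.86-fold and 1.98-fold, and neither held with the covariate (adjusted p = 0.446 and 0.364). COR15A read 11.25, 11.10 and 11.65 at ZT18 against 13.17, 12.59 and 12.79 at ZT12. The dehydrin gene COR47 rose 1.43-fold (adjusted p = 0.00146, and 0.0742 with the covariate), and COR27 is described above. Of the markers of roots, which the aerial tissue should lack, 2 of 4 genes with a probe set were tested and neither passed, but PYK10, a beta-glucosidase gene of roots and hypocotyls, had a level well above the detection limit at both times, at 13.19 ± 0.19 at ZT18 and 13.33 ± 0.12 at ZT12. The wound and touch gene STZ was uneven among ZT12 arrays, with 5.64, 5.04 and 4.52 at ZT18 against 4.81, 6.19 and 7.44 at ZT12, and did not pass (adjusted p = 0.338).

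Families of proteases, peptides and transport held rises and falls side by side. Of 14 measured serine carboxypeptidase genes, 5 were higher and 5 were lower, and SCPL34 rose 3.74-fold (11.14 ± 0.14 at ZT18 and 9.24 ± 0.03 at ZT12). Of 12 beta-glucosidase genes, 3 were higher and 5 were lower: BGLU16 rose 2.83-fold and BGLU40 fell 5.32-fold, with 6.14, 5.84 and 5.65 at ZT18 against 8.69, 8.27 and 7.91 at ZT12. RALF peptides are secreted signals that restrain growth, and of 6 measured genes RALFL22 rose 3.04-fold, RALFL24, RALFL32 and RALFL34 fell 1.90-fold, 1.92-fold and 1.74-fold, and 2 did not pass. Tetraspanin genes had 3 of 6 higher, led by TET10 at 2.53-fold, and 2 lower, led by TET2 at 1.95-fold. Among TRM genes, whose products shape microtubule arrays, 4 of 9 were higher and none was lower, led by TRM26 at 2.78-fold, a call lost with the covariate (adjusted p = 0.251), and TRM28 at 2.37-fold. Of 12 tubulin and actin genes, TUA1 was higher by 0.98 and TUA6 lower by 0.74 on the log2 scale, and 10 did not pass. No peroxidase gene passed in limma out of 5 measured, with 2 at an unadjusted p under 0.05. With the covariate, 2 of the 10 calls held for serine carboxypeptidases, 2 of 8 for beta-glucosidases and 3 of 4 for RALF genes. The counts were 2 of 5 for tetraspanins, 2 of 4 for TRM genes and 1 of 2 for tubulin and actin.

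Regulators were no more uniform. Of 13 genes of the bZIP list, which does not hold HYH, 5 were higher and 4 were lower, and none of these 9 calls held with the covariate (1 with the r2 covariate); AT2G40620 rose 2.38-fold and BZIP24 fell 1.81-fold. Among histone and chromatin genes, HDA15, for a histone deacetylase, rose 1.81-fold and HTR12, for the centromeric histone H3, fell 1.81-fold. Genes of the cell cycle and replication had 1 of 11 higher and 3 lower, led by POLA3, a subunit gene of DNA polymerase alpha, which fell by 1.29 on the log2 scale, and AUR2, for an Aurora kinase, which fell by 0.90. Plant U-box ubiquitin ligase genes had 2 of 6 higher and 2 lower, and the lower ones were PUB25, which fell 2.76-fold, and PUB26, which was at least 1.66-fold lower. Genes of the TCA cycle and citrate metabolism had 3 of 14 higher and 3 lower, all within 0.57 on the log2 scale, and none held with the covariate (1 with the r2 covariate). For histone and chromatin genes, 1 of 3 calls held with the covariate. The count was 1 of 4 for the cell cycle and replication and 1 of 4 for U-box ligases.

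The step across lights off was set against the preceding 6 h of light by testing ZT18 minus ZT12 against ZT12 minus ZT6 in the same fit. These steps share the ZT12 arrays. The later step held light until ZT16 and then 2 h of dark. No array was taken between ZT12 and ZT18, so a change could not be placed before or after lights off. They differed for 4419 probe sets (31.5%), for 2593 without ZT12 replicate 1, for 1313 with the covariate and for 2128 with the r2 covariate. For 68 genes the steps differed and both were called, in opposite directions. The 5 of these with the largest change across lights off were BHLH101, UGT73C1, AT1G22570, AT3G14200 and AT1G19960. UGT73C1, which encodes a glucosyltransferase of cytokinins and foreign compounds, read 2.09, 2.08 and 2.10 at ZT18 against 4.74, 5.15 and 4.66 at ZT12, after a rise of 1.04 (adjusted p = 0.0143). AT1G22570 was the 1 of the 5 that rose from ZT12 to ZT18, after it fell by 1.20 from ZT6 to ZT12 (adjusted p = 0.0383). It read 7.08, 7.33 and 6.96 at ZT18 against 4.29, 3.28 and 4.10 at ZT12. AT3G14200 fell 5.98-fold and AT1G19960 6.26-fold. For all 5, the difference between the steps passed with either covariate and after leaving out any array. The choice of these genes required it to pass in the main fit, and steps of opposite sign enlarge it. The earlier step was less firm: it was not called in 6 of the 12 fits that each left out 1 array for BHLH101 and AT1G22570, in 3 for UGT73C1, in 2 for AT3G14200 and in 1 for AT1G19960, nor with the covariate for AT1G22570 (adjusted p = 0.0516).

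The remaining 6 arrays gave another night to day comparison that shares no array with ZT18 and ZT12, namely ZT0 against ZT6. The 2 comparisons are not fully independent, as both came from 1 fit and share its estimate of the spread. Deviations of same-numbered arrays also correlated between ZT0 and ZT12 (r of 0.19 to 0.40) and between ZT0 and ZT18 (0.18 to 0.32). Between ZT0 and ZT6, 3980 probe sets were higher at ZT0 (28.4%) and 3871 were lower (27.6%). Of the 1035 probe sets at least 2-fold higher at ZT18 than at ZT12, 800 (77.3%) were also higher at ZT0 than at ZT6 and 17 were lower. Of the 1190 at least 2-fold lower, 896 (75.3%) were also lower at ZT0 and 38 were higher. Without the 2-fold limit, the 2212 shared probe sets were 60.5% of the 3659 higher at ZT18 and 55.6% of the 3980 higher at ZT0, and the 2120 shared lower ones were 62.0% of the 3419 and 54.8% of the 3871.

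Some genes named above that were called at ZT18 were not called in the same direction at ZT0. For 2 of them, Hop3 and AT5G48570, the call at ZT18 did not hold with the covariate. AT1G53540 and Hop3 had log2 differences of -0.73 and -0.24 between ZT0 and ZT6 that did not pass (adjusted p = 0.334 and 0.710), and AT5G48570 fell by 3.17 at ZT0 against ZT6 (adjusted p = 1.52e-05) although it rose at ZT18. HYH differed by 0.08 (adjusted p = 0.855). AT3G15440, by contrast, was also higher at ZT0, with 8.38, 9.10 and 7.40, than at ZT6, with 2.23, 2.23 and 2.09. The difference between these 2 comparisons was not tested for single genes.

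**Figure D5:**
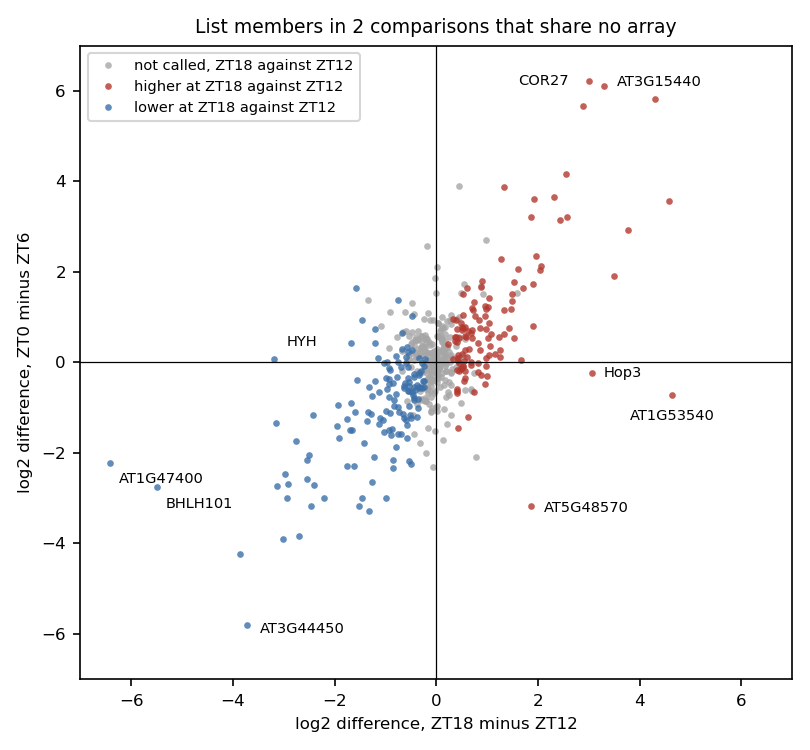
Log2 difference of ZT18 minus ZT12 (horizontal axis) and of ZT0 minus ZT6 (vertical axis) for the 497 tested genes of the gene lists, coloured by the call at ZT18 against ZT12. Of these genes, 116 were higher and 137 lower at ZT18; HYH, Hop3 and AT1G53540 lie between -0.73 and 0.08 on the vertical axis and AT5G48570 far below them.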

How the data were processed

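RNA of 12 samples, 3 at each of 4 times, was hybridised to Affymetrix Arabidopsis arrays. The authors deposited log2 expression values per probe set, 1 column per array. Per the submitters' processing notes, which assign no roles, the tools were R 3.1, GCRMA and affy 1.42.3; background settings are not given in the sources used here.

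Groups followed the titles. The file held 22810 probe sets. Without 64 control sets, 22746 remained, and 14016 of these reached 4 on at least 3 arrays; 4 also served as the detection limit, since no detection calls were used. The platform table gave 1 gene for 7610 tested probe sets, several for 299 and none for 6107, which are unnamed here. This left 7572 genes, 1108 with a symbol, so lists cover part of each family, and CCA1 had no named probe set.

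All 12 arrays entered limma 3.58.1 in R 4.3.3 (lmFit, a mean per time; eBayes with trend; two-sided; Benjamini-Hochberg over all 14016). Tests covered ZT18 minus ZT12, its difference from ZT12 minus ZT6, and ZT0 minus ZT6. A fold is a bound where the dimmer time was under 4 on each of its 3 arrays, computed against the higher of 4 and the value on each dim array. Alternatives were the 3' minus 5' covariate (all 6 control pairs, or only the 3 pairs of the r2 sets, added after seeing the data), filters, normalization, the fit and left-out arrays. Simulated data of 14016 probe sets were used to test ZT18 against ZT12: 83% of 100 2-fold and 98% of 100 4-fold changes were recovered, with 4 false calls. The changes were placed only in probe sets with a mean above 6, and the noise was independent between arrays. No quality difference between times was simulated, so the result does not cover dim genes or the 3' minus 5' difference.

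The comparison, gene lists and named genes were chosen with earlier results of these data known. Of the lists, 66 were written first and 16 added by symbol. Named were the 15 largest rises and 15 largest falls without overlap of arrays. All tested members of 6 lists (clock, cold-regulated clock partners, photoperiod, light signalling, iron, starvation) were named as well. So were up to 2 members of other lists with at least 3 tested. The last 5 had the largest ZT18 minus ZT12 change among genes called in the opposite direction over the preceding 6 h. Other named members were chosen after their values were seen.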

Additional observations from a re-analysis of the deposited data

How the results depend on the processing

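With the 3' minus 5' covariate, the count of probe sets that differed between ZT18 and ZT12 was 2575, in place of 7078 (1327 higher and 1248 lower at ZT18), and 3721 with the covariate from the r2 control sets alone (1969 higher and 1752 lower). The count whose step across lights off differed from the preceding 6 h was 1313 and 2128, in place of 4419. The cause was not tested, since the covariate separates ZT18 from the other times and so takes part of the difference between groups. Leaving out 1 array in turn gave 5957 to 7226 calls (3069 to 3726 higher and 2888 to 3500 lower), 2090 to 2326 of at least 2-fold, and 2593 to 4904 for the comparison of steps, where 2593 came without ZT12 replicate 1. The 3' minus 5' difference ran from 0.56 to 0.83. Every other alternative run kept these counts within 1.5 times: only the arrays of the times compared, no filter, a filter at 6, median centring, quantile normalization, no variance trend and a robust trend. No result reversed. Of 132 called genes among the 136 named by rule, 44 were not called with the covariate, 31 with the r2 covariate, at most 7 under each of the others (the filter at 6 left some of them untested) and at most 8 without any 1 array. Of the 4 not called, no more than 1 was called without any 1 array. The replicate number as a block gave 7631 calls and lost none of the 132. Deviations of same-numbered arrays correlated with r of 0.06 to 0.11 between ZT18 and ZT12, against -0.17 to 0.11 for different numbers. Between ZT0 and ZT6, r was 0.01 to 0.04, against -0.10 to 0.07. The numbers were thus not taken to pair the times compared. Other times differed more: r was 0.19 to 0.40 between ZT0 and ZT12 (-0.29 to 0.05 for different numbers). It was 0.18 to 0.32 between ZT0 and ZT18 (-0.35 to 0.08). For ZT6 it was 0.07 to 0.34 with ZT18 (-0.30 to 0.19) and -0.15 to 0.03 with ZT12 (-0.15 to 0.15). The main fit did not model the replicate number. Values near the floor limit what can be told of dim genes.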
